A study of Mus musculus with 90 samples.

Results

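Granulocyte-monocyte effector genes encode the granule enzymes, the lysozyme, the protease inhibitors and the signalling and oxidase proteins with which neutrophils and monocytes attack microbes. The set described here holds 9 genes, Mpo, Elane, Prtn3, Ctsg, Lyz2, Slpi, Cst7, Tyrobp and Ncf4, taken by symbol from a table of 35869 genes and followed in each of 33 single cells of mouse bone marrow origin. All 9 symbols were found in the table.

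In the neutrophil lineage the azurophil granule is filled at the promyelocyte stage. It carries myeloperoxidase (Mpo), which makes hypochlorous acid, and the serine proteases neutrophil elastase (Elane), proteinase 3 (Prtn3) and cathepsin G (Ctsg). Lysozyme M (Lyz2) cleaves bacterial cell walls and is made by most myeloid cells. Secretory leukocyte protease inhibitor (Slpi) blocks elastase and cathepsin G, and cystatin F (Cst7) blocks lysosomal cysteine proteases, among them the cathepsin C that activates granule serine proteases. Tyrobp encodes DAP12, an adaptor that couples activating receptors to the kinase Syk, and Ncf4 encodes p40phox, a cytosolic subunit of the phagocyte NADPH oxidase.

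The study examined the fate of CD41-positive hematopoietic stem cells after loss of RUNX1, a transcription factor of blood development. Every mouse carried the floxed allele RUNX1f/f and received 4 poly(I:C) injections, the controls (WT, MxCre1-/-,RUNX1f/f) included. Knockout mice (KO, MxCre1+/-,RUNX1f/f) also carried Mx1-Cre, a recombinase under an interferon-responsive promoter that is active in many tissues besides blood cells. Stem cells were sorted 4 weeks after injection, cultured for 2 days, and single cells labelled as megakaryocyte (MK) or not (NMK) were taken for SMART-Seq libraries. The labels give no age or sex and name no animal or culture. The table kept by the authors held 9 NMK and 6 MK cells of WT and 13 NMK and 5 MK cells of KO mice. Another 13 libraries stand only in a fuller table of 46, and 44 of 90 labelled samples are not analysed here.

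Because no animal is named, each group counts as 1 sample. No test was run and no p-value is given. Values are TPM, a transcript abundance scaled per length and to the same total in every library, so levels can be compared between genes but the read depth is unknown. A cell is said to hold a gene at 1 TPM or more. A difference between groups is the difference of mean log2(TPM + 1), set beside the pooled SD between cells, and a gene is called higher or lower from a difference of 1, which is 2-fold on that scale. Calls were made among genes with a mean of at least 1 TPM in a group of the comparison. Shares of cells carry exact Clopper-Pearson 95% intervals, and a count of 0 also carries the limit of 3 cells in the total. Both cover counting error only and treat every cell as separate, also where groups are pooled.

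Some libraries stood apart. KO NMK B1-1b had 91.6% of its TPM on mitochondrial genes, and KO NMK B1-2a held 3011 genes above 0. Their mean log2(TPM + 1) over 14 housekeeping genes was 4.62 and 3.01, against 8.76 or more in the other 31 cells. The 5 WT MK cells whose titles have no prefix correlated with each other at 0.96 to 0.97, over genes with a mean of at least 1 TPM in a group. This was above the range of 0.62 to 0.80 in WT NMK and of 0.75 to 0.92 in KO MK cells. The spread of these 5 cells may therefore be less than that of separate cells. MK cells held more genes above 0 (14089 to 15252 in WT, 11896 to 14487 in KO) than NMK cells (5475 to 11715 and 3011 to 10987). Runx1 was at 7.6 to 22.2 TPM in WT MK and 8.9 to 47.5 TPM in KO MK cells, and since it is counted over the full gene it does not check for the deletion. Itga2b, which encodes the CD41 used for sorting, was held by all 6 WT MK and 4 of 5 KO MK cells, and by 3 of 9 WT NMK and 7 of 13 KO NMK cells.

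Among the 5 KO MK cells, 2 went against their label. The mean log2(TPM + 1) of 16 megakaryocyte-platelet genes was 9.10 in KO MK 1B, 8.18 in 1A and 7.68 in B1-3, but 2.5 in cell 2 and 1.76 in cell B1-4. It was 5.25 to 6.14 in WT MK cells and 0.74 to 3.04 over all 22 NMK cells, so these 2 cells lay within the NMK range. Platelet factor 4 (Pf4) was at 213.7 TPM in cell 2 and 65.8 TPM in B1-4, against 12513 TPM or more in every WT MK cell. Both held Ly6a, the stem cell antigen Sca-1, at 342.2 and 199.0 TPM, where the other 3 KO MK cells had 0.1 TPM or less. Most differences and counts that rest on KO MK cells are therefore given with and without them.

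Only Lyz2 was present in nearly all cells, and 3 of the 9 genes were held by none of the 33. The median number of members held per cell was 2 in both NMK groups (0 to 3 in WT, 0 to 4 in KO), 4 in WT MK (3 to 5) and 5 in KO MK (4 to 6). MK cells of each genotype thus held more of the 9 genes than the NMK cells, beside the larger number of genes of any kind that they held. The part of that difference between libraries in the result was not tested.

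**Figure D1:**
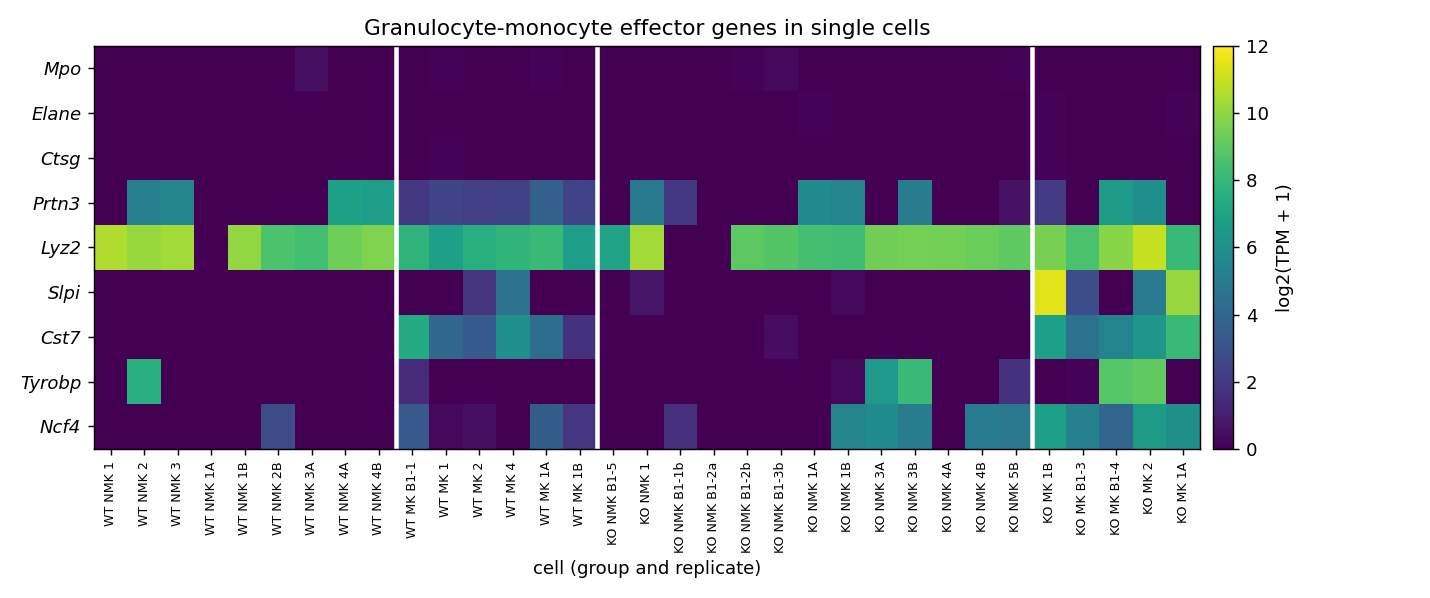
Level of the 9 genes as log2(TPM + 1), by colour, in each of the 33 cells, with white lines between the 4 groups. Mpo, Elane and Ctsg are near 0 throughout, Lyz2 is high in 30 of 33 cells, and Cst7 is confined to the 11 cells labelled MK apart from 0.3 TPM in KO NMK B1-3b.

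Promoter windows were at hand in RefSeq for 7 of the 9 genes, all but Tyrobp and Ncf4. Of these, 3 are printed because they show the range of patterns: Cst7 and Slpi, held by MK cells alone, and Ctsg, held by no cell. Each is the 250 bases before the RefSeq start, read on the gene's strand of GRCm38.p6, with capitals marking matches on either strand to short motifs of 5 factor families. The RUNX motif was searched as TGTGGT. For ETS factors such as PU.1 the motif was GAGGAA. For C/EBP factors it was TTNNGNAA, where N is any base. The MYB motif was searched as AACNGT. For GATA factors the motif was AGATAA. The windows are chr2:150570165-150570414 on the plus strand for Cst7, chr2:164356508-164356757 on the minus strand for Slpi and chr14:56102575-56102824 on the minus strand for Ctsg.
Cst7: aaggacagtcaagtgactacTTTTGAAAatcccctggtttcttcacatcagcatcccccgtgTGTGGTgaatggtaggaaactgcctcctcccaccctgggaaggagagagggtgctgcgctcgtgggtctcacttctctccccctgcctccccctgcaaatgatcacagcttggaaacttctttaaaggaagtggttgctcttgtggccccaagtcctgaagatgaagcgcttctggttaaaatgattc
Slpi: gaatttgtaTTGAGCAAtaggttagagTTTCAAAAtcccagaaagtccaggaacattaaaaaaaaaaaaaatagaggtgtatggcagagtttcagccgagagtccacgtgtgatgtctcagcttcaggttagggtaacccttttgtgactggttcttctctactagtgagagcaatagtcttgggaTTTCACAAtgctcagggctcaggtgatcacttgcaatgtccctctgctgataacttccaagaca
Ctsg: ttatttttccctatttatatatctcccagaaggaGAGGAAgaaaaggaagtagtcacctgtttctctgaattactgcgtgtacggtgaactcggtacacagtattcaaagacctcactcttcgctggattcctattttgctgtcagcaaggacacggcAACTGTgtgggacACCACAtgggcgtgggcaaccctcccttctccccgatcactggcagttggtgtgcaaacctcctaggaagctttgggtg

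The Cst7 window held 1 RUNX match and 1 C/EBP match, the Slpi window 3 C/EBP matches and no other, and the Ctsg window 1 match each to RUNX, ETS and MYB. No printed matches overlap. RUNX letters were thus present both in a gene of MK cells and in a gene that no cell held. Over the other 4 windows, Lyz2 held 1 RUNX and 1 C/EBP match, Mpo 2 ETS and 1 MYB, Prtn3 1 ETS and 1 MYB and Elane 1 ETS match. No window held the GATA letters. Of 32851 RefSeq windows of the same length, 14.0% held the RUNX letters, 23.3% ETS, 36.8% C/EBP, 22.3% MYB and 9.99% GATA, so each is common by itself. A match is a description of the letters and not of binding.

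Of the azurophil granule genes, Prtn3 was held by many cells and the other 3 by none. Mpo, on chromosome 11 from 87793581 to 87804413 (GRCm38, plus strand), did not pass 0.4 TPM in any cell, with its highest value in WT NMK 3A. Elane, on chromosome 10 from 79886247 to 79888215 (plus strand), did not pass 0.1 TPM and was above 0 in 3 cells. Ctsg, on chromosome 14 from 56099881 to 56102574 (minus strand), did not pass 0.1 TPM and was above 0 in 2 cells. A count of 0 in 33 cells allows a share of up to 9.09% of cells for each of these 3 genes by the limit of 3 cells, and up to 10.6% by the exact interval. Mpo overlaps the long noncoding RNA Gm34064, whose reads cannot be told apart from its own where the strand is not used.

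Prtn3 was held by 18 of 33 cells (54.5%, 36.4 to 71.9%). It lies on chromosome 10 from 79874476 to 79883174 on the plus strand, and 3072 bases separate its end from the start of Elane, so that neighbouring protease genes had different levels in the same cells. In WT NMK cells Prtn3 was at 0 TPM at the lowest, 0 at the median and 115 at the highest, and 4 of 9 cells held it, at 36.4, 42.6, 100.3 and 114.7 TPM. In WT MK cells it ran from 2.8 through a median of 4.2 to 11.7 TPM, and all 6 cells held it. KO NMK cells had 0, 0 and 54.9 TPM as lowest, median and highest, and 5 of 13 cells held it. Prtn3 in KO MK was at 3.1 TPM in 1B, 0 in B1-3, 91.2 in B1-4, 62.1 in cell 2 and 0 in 1A. The NMK cells were thus either at 0 or at 27.6 TPM and above, apart from KO NMK B1-1b at 2.8 TPM and 5B at 0.5 TPM, whereas all 6 WT MK cells lay in between. Within KO MK, the cells of low platelet score, B1-4 and 2, had the high values.

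With all cells, no comparison of Prtn3 exceeded the spread between cells. The difference was -0.17 (pooled SD 2.56) for WT MK minus WT NMK and -0.87 (2.80) for KO NMK minus WT NMK. It was 1.09 (2.66) for KO MK minus KO NMK and 0.39 (2.16) for KO MK minus WT MK. Without KO MK B1-4 and 2 the last pair turned to -1.14 (2.33) and -1.84 (0.81), of which the latter exceeded the spread.

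The lysozyme gene Lyz2 was the most abundant member in most cells and was held by 30 of 33 (90.9%, 75.7 to 98.1%). Its position is chromosome 10 from 117277331 to 117282321 (minus strand). The lowest, median and highest values were 0, 808 and 1511 TPM in WT NMK, 104, 208 and 271 TPM in WT MK and 0, 503 and 1285 TPM in KO NMK cells. KO MK cells had 733.7 TPM in 1B, 370.1 in B1-3, 944.5 in B1-4, 1992.3 in cell 2 and 271.6 in 1A. Every KO MK cell was above every WT MK cell, though only just, at 271.6 against 270.6 TPM. The 3 cells at 0 were WT NMK 1A, KO NMK B1-1b and KO NMK B1-2a, of which the last pair are the libraries of low housekeeping score. WT NMK 1A had a housekeeping score of 8.90 and held none of the 9 genes.

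In rank, Lyz2 stood between 129 and 581 among all genes in the 8 WT NMK cells that held it and between 725 and 1394 in WT MK cells. In KO MK cells it ranked between 68 and 741. The difference in mean log2(TPM + 1) was -1.09 (pooled SD 2.61) for WT MK minus WT NMK, and -2.16 without WT NMK 1A. KO MK minus WT MK was 1.93 (0.87), and 1.24 without KO MK B1-4 and 2. KO MK minus KO NMK was 1.82 (3.04), but 1.14 without KO MK B1-4 and 2 and 0.45 without the libraries of low housekeeping score. Without those libraries KO NMK minus WT NMK turned from -0.99 (3.39) to 0.39. Without WT NMK 1A alone that difference was -2.06. Lyz1, a near-identical neighbour 5475 bases away, was at a median of 40.8 TPM in WT NMK, 4.2 in WT MK, 14.9 in KO NMK and 11.5 in KO MK cells. How reads shared by the 2 genes were counted is not given in the sources used here, so the split between them is uncertain.

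**Figure D2:**
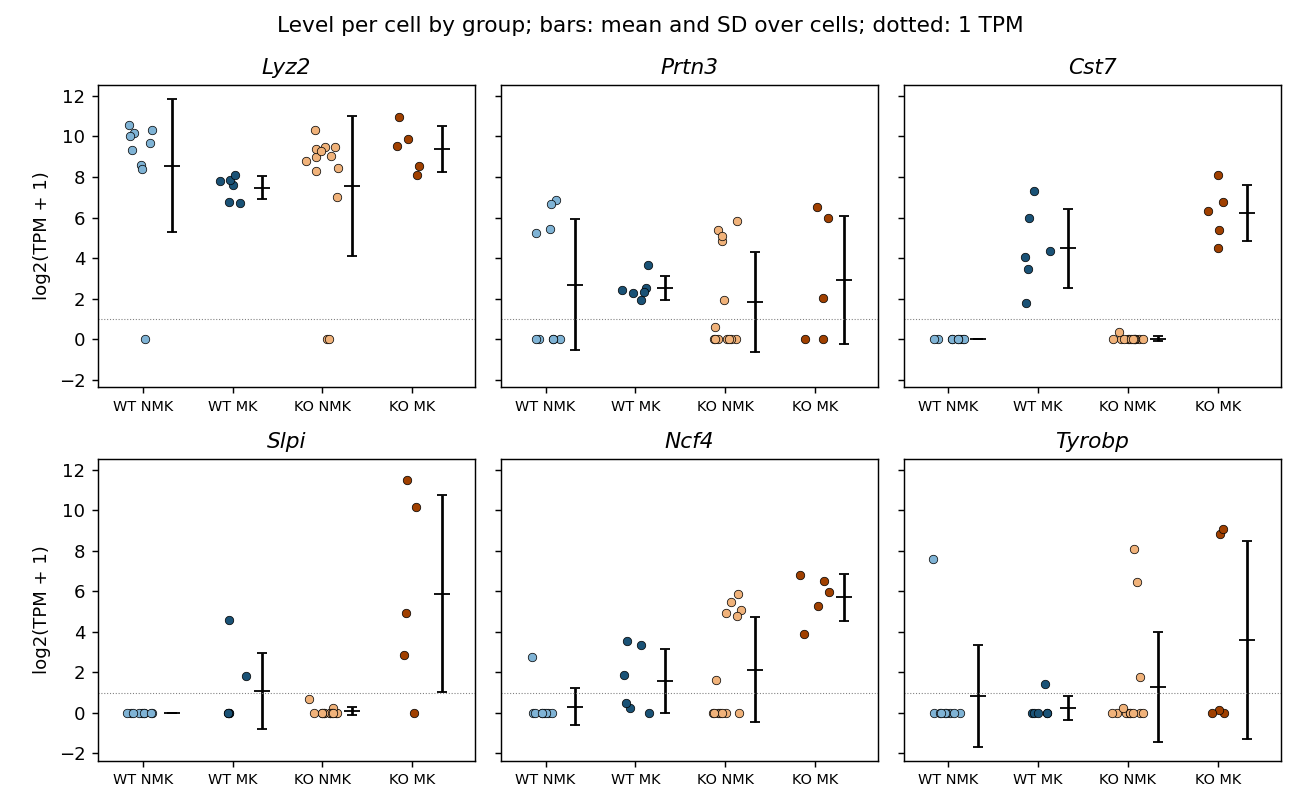
Level per cell as log2(TPM + 1) of the 6 genes held by at least 1 cell, by group, with the mean and SD over cells as a bar to the right and 1 TPM as a dotted line. Cst7 separates MK from NMK cells in both genotypes, and Ncf4 and Lyz2 in KO MK cells lie above all WT MK cells.

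The inhibitors Cst7 and Slpi were held by cells labelled MK and by no others. Cst7 was held by 11 of 11 MK cells (71.5 to 100%) and by 0 of 22 NMK cells, which allows a share of up to 13.6% by the limit of 3 cells and 15.4% by the exact interval. Slpi was held by 6 of 11 MK cells (54.5%, 23.4 to 83.3%) and likewise by 0 of 22 NMK cells. These intervals pool both genotypes and take each cell as separate. With the alike WT MK cells counted as 1, Cst7 was held by 2 of 2 WT MK cells and Slpi by 1 of 2. Without the libraries of low housekeeping score, 0 of 11 KO NMK cells held either gene. Both lie on chromosome 2, far apart: Cst7 from 150570415 to 150578944 on the plus strand and Slpi from 164354070 to 164389095 (minus strand).

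In WT MK cells Cst7 ran from 2.4 through a median of 17.5 to 159 TPM, and the highest was B1-1. In KO MK it was at 109.3 TPM in 1B, 21.2 in B1-3, 40.5 in B1-4, 80.1 in cell 2 and 275.4 in 1A. All 9 WT NMK cells were at 0, and KO NMK cells did not pass 0.3 TPM. MK and NMK values did not overlap in either genotype, and this held for the KO MK cells of low platelet score too: B1-4 and 2, which lay within the NMK range in platelet genes, were well above it in Cst7. The difference was 4.49 (pooled SD 1.21) in WT and 6.19 (0.70) in KO cells, and 6.43 in KO without B1-4 and 2. KO MK cells were higher than WT MK cells by 1.73 (1.72), with overlapping ranges, and by 1.97 without B1-4 and 2. The difference was 0.60 where the 5 alike WT MK cells counted as 1. Among cells with the title prefix B1 (KO MK B1-3 and B1-4, WT MK B1-1) the direction turned, at -2.40. Of 9 MK libraries that the authors left out, 7 had Cst7 at 0, among them KO MK 1 with a housekeeping score of 8.70. With all libraries of the fuller table the differences between MK and NMK cells were 2.45 in WT and 3.75 in KO, and without those of low housekeeping score 4.49 and 4.64.

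Slpi was much less even. WT MK cells had 0 TPM at the lowest and at the median and 23.1 at the highest, with 2 of 6 cells holding it. KO MK values were 2847.1 TPM in 1B, 6.2 in B1-3, 0 in B1-4, 29.0 in cell 2 and 1147.9 in 1A. The 2 highest values were in the cells of the highest platelet score, and in 1B Slpi ranked 30 among all genes. NMK cells did not pass 0.6 TPM. The difference between MK and NMK cells was 1.07 (pooled SD 1.16) in WT, which was 0.36 without WT MK 4. In KO cells it was 5.81 (2.43), and 8.09 without B1-4 and 2. KO MK minus WT MK was 4.81 (3.53), and 7.10 without B1-4 and 2, but 1.42 among cells with the title prefix B1, where KO MK has B1-3 and B1-4 and WT MK has B1-1.

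Tyrobp was high in other KO MK cells than Slpi. It lies on chromosome 7 from 30413760 to 30417585 on the plus strand and was held by 7 of 33 cells (21.2%, 8.98 to 38.9%). KO MK cells had 0 TPM in 1B, 0.1 in B1-3, 449.1 in B1-4, 530.4 in cell 2 and 0 in 1A. WT MK cells did not pass 1.7 TPM. The highest NMK values were 191.5 TPM in WT NMK 2, 272.4 in KO NMK 3B and 85.7 in KO NMK 3A, with medians of 0 in both NMK groups. Within KO MK, Tyrobp was therefore high in the 2 cells of low platelet score and at 0.1 TPM or less in the 3 others.

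The Tyrobp difference was 3.36 (pooled SD 3.28) for KO MK minus WT MK and 2.33 (3.39) for KO MK minus KO NMK. Without B1-4 and 2 these turned to -0.19 and -1.23. It was -0.60 (2.02) for WT MK minus WT NMK, and 0.24 without WT NMK 2, and 0.43 (2.65) for KO NMK minus WT NMK.

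Ncf4 was the 1 member called higher in KO than in WT cells of both kinds, by less than the spread between cells in NMK. It lies on chromosome 15 from 78244801 to 78262580 on the plus strand and was held by 15 of 33 cells (45.5%, 28.1 to 63.6%). KO MK cells had 109.6 TPM in 1B, 37.9 in B1-3, 13.9 in B1-4, 91.0 in cell 2 and 62.2 in 1A. WT MK cells ran from 0 through a median of 1.55 to 10.7 TPM, so that every KO MK cell was above every WT MK cell. KO NMK cells had 0, 0 and 56.7 TPM as lowest, median and highest, and 6 of 13 held the gene (46.2%, 19.2 to 74.9%). In WT NMK cells 1 of 9 held it (11.1%, 0.281 to 48.2%), WT NMK 2B at 5.8 TPM.

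The Ncf4 difference between KO and WT was 4.11 (pooled SD 1.41) in MK cells and 1.83 (2.09) in NMK cells. The former was 4.43 without B1-4 and 2 and 3.40 with the alike WT MK cells counted as 1, but 1.24 among cells with the prefix B1. MK minus NMK was 1.28 (1.22) in WT, or 0.89 and no longer called without WT MK 1A. In KO cells it was 3.56 (2.32), and 3.88 without B1-4 and 2, and 3 of 5 KO MK cells were above every KO NMK cell. Whether the MK and NMK differences between genotypes are unequal was not tested.

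**Figure D3:**
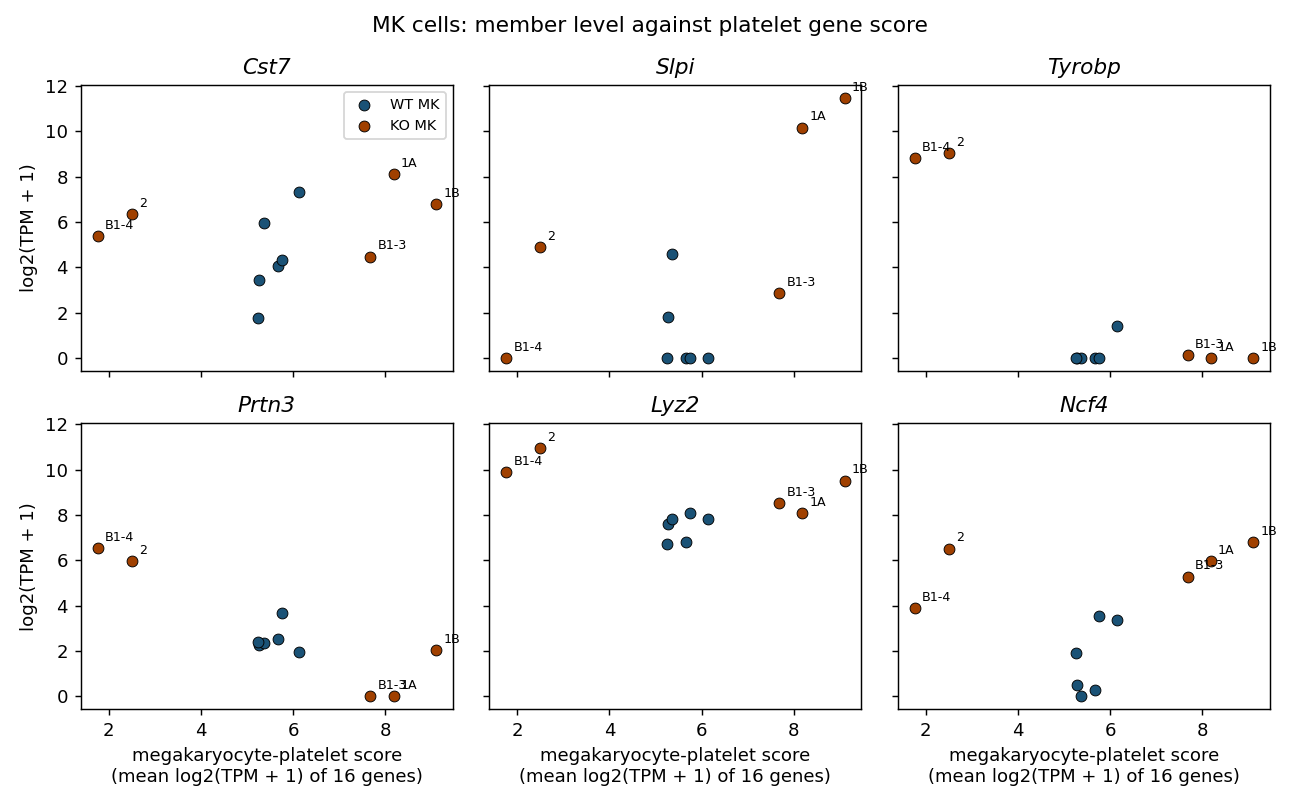
Level of 6 genes as log2(TPM + 1) against the megakaryocyte-platelet score, the mean log2(TPM + 1) of 16 platelet genes, in 6 WT MK (blue) and 5 KO MK cells (brown, with replicate names). Tyrobp and Prtn3 are high in KO MK B1-4 and 2, at scores of 1.76 and 2.5, Slpi is highest in 1A and 1B, and Cst7 and Ncf4 are present at both ends.

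The counts of members called were set beside those of the genes tested, which passed the minimum of 1 TPM, and beside those of all 35869 genes with no minimum. Mpo, Elane and Ctsg did not reach the minimum in any group, so a count over all 9 members is matched by the share over all genes. For WT MK minus WT NMK, 3 members were called higher (Cst7, Ncf4 and Slpi), where 37.4% of 11562 genes tested were, and 1 was called lower (Lyz2), where 5.22% of genes were. Over all 35869 genes these shares were 12.1% and 1.68%. The median difference was 0.00 over the 9 members, as over all genes, and 0.70 over the genes tested. Values of MK cells lay above all NMK cells for 1 member, Cst7, and for 4.58% of genes.

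For KO MK minus KO NMK, 6 of the 9 members were called higher, against 34.2% of 13365 genes, and 0 lower, against 3.84%. Over all genes the shares were 12.7% and 1.43%. The median over the 9 was 1.82, beside 0.00 over all genes and 0.59 over the genes tested. Non-overlapping higher values were seen for 1 member, Cst7, and for 0.299% of genes, or 40 in number. Without KO MK B1-4 and 2, 4 members were higher and 2 lower and the median was 0.08. Without cell 2 alone, 4 were higher and the median was 0.96. Without the libraries of low housekeeping score, 4 were higher and the median was 0.93. No share or median over all genes was computed with cells left out, here or for the counts below. The shares given are for all cells of the groups.

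For KO MK minus WT MK, 5 members were called higher (Lyz2, Slpi, Cst7, Tyrobp and Ncf4), against 12.4% of 11796 genes, and 0 lower, against 9.27%. Over all genes the shares were 4.08% and 3.05%. The median over the 9 was 1.73, beside 0.00 over all genes and 0.09 over the genes tested. Every KO MK cell was above every WT MK cell for Lyz2 and Ncf4, and for 2.38% of genes tested. Without B1-4 and 2 the median was 0.09, with 4 members higher (Lyz2, Slpi, Cst7 and Ncf4) and 1 lower (Prtn3). For KO NMK minus WT NMK, Ncf4 alone was called higher, against 12.8% of 12835 genes, and 0 members lower, against 13.3%. Over all genes the shares were 4.57% and 4.77%. The median was 0.01 over the 9 members, 0.00 over all genes and 0.20 over the genes tested. The comparisons share groups of cells, so they are not separate evidence.

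**Figure D4:**
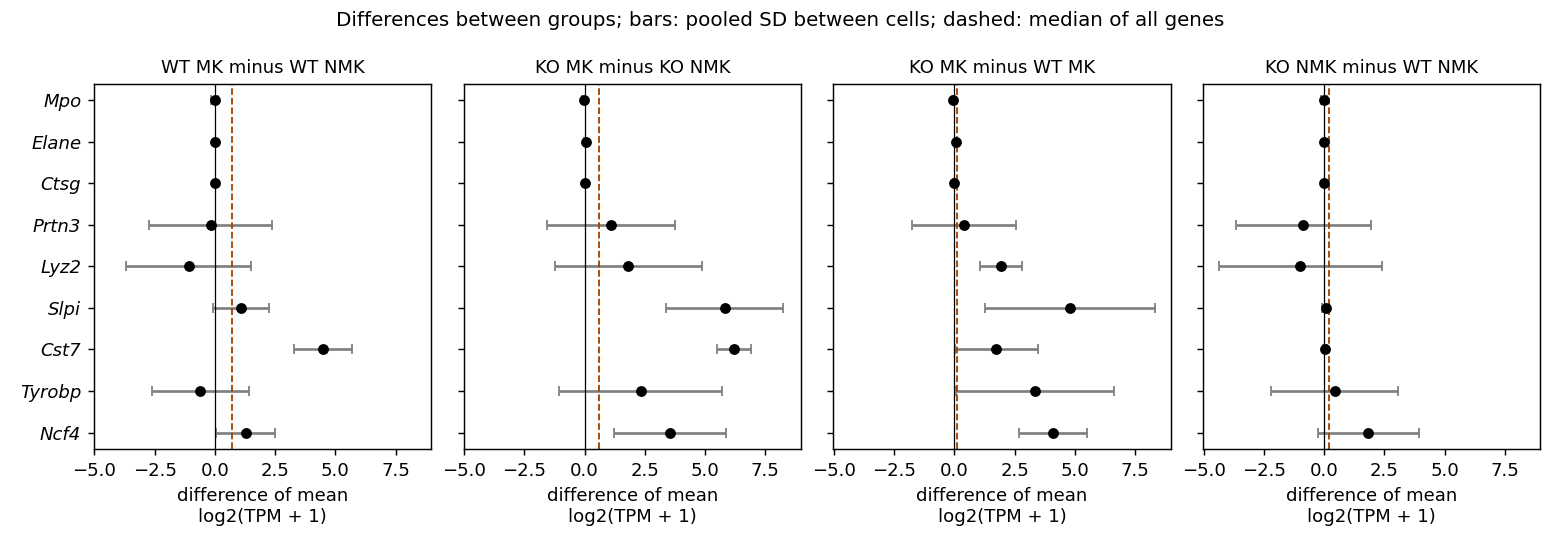
Difference of mean log2(TPM + 1) for each gene in the 4 comparisons, with the pooled SD between cells as bars and the median of all genes tested as a dashed line. Cst7 lies at 4.49 and 6.19 in the MK minus NMK comparisons, and Ncf4 at 4.11 and Lyz2 at 1.93 in KO MK minus WT MK.

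Over the 33 cells, Slpi and Cst7 had the highest correlation of log2(TPM + 1) among pairs of the 6 detected members, at 0.71. Slpi and Ncf4 had 0.50, Cst7 and Ncf4 0.48, Tyrobp and Ncf4 0.42 and Prtn3 and Tyrobp 0.40. Slpi and Tyrobp had -0.01, and 1 cell, KO MK 2, held both. These are descriptions over cells that share groups, and the MK cells share larger numbers of detected genes.

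The genes most like each member were taken by the same correlation, as the highest among 10490 genes compared. How high a value such a search gives by itself was not tested. For Slpi the first was Mir7678 at 1.0, a microRNA annotated inside Slpi on chromosome 2 from 164354313 to 164354383, so the 2 rows may share reads. Gcsam at 0.94 and Syt13 at 0.88 followed, and KO MK cells reached 254 and 117 TPM in them. Cst7 was most like LOC108168254 (0.91), Mir6979 (0.88) and Prkaa2 (0.88), a catalytic subunit of the AMP-activated kinase. Lyz2 was most like Gng10 (0.94), Hsd17b10 (0.93) and Vkorc1 (0.92), and without the libraries of low housekeeping score its closest was Lyz1 (0.86). In the cells where Lyz2 was at 0, Gng10 and Hsd17b10 were at 0 too and Vkorc1 did not pass 3.6 TPM. Lyz1 was likewise at 0 in WT NMK 1A. Shared values at 0 in few cells thus weigh on these correlations. For Ncf4, Tyrobp and Prtn3 the highest values were 0.72 (Adgrg3), 0.73 (Nlrc3) and 0.64 (Coq6). Some of these genes were held by few cells, Tyrobp and Nlrc3 by 7 each and Syt13 by 5.

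The transcription factors of granulocyte-monocyte fate were present in part. Cebpa, which opens the granulocyte programme, did not pass 0.6 TPM in any cell, and Gfi1, a repressor needed for neutrophil differentiation, was at 0 in all 33. Spi1, which encodes PU.1, had medians of 23.8 TPM in WT NMK, 1.3 in WT MK, 29.4 in KO NMK and 1.9 in KO MK cells. In KO MK it was at 136.7 TPM in B1-4 and 42.4 in cell 2, and at 1.9 TPM or less in the other 3, the same split as Tyrobp. Of 10 such factors, 6 passed the minimum in each comparison. For WT MK minus WT NMK, where 37.4% of genes tested were higher and 5.22% lower, 1 factor was higher and 2 were lower. The higher one was Runx1 itself, at 7.6 to 22.2 TPM in WT MK and 0 to 15.7 TPM in WT NMK cells. Myb was among the lower, at -2.57 (pooled SD 1.21).

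Companions of the primary granule gave a mixed picture. Ms4a3, a marker of granulocyte-monocyte progenitors, was at 41.3 to 82.9 TPM in all 6 WT MK cells, and 1 of 9 WT NMK cells held it. The difference of 5.33 (1.35) had no overlap between cells. In KO MK cells 2 of 5 held it, cell 2 at 104.9 TPM and B1-3 at 5.6 TPM, and KO MK minus WT MK was -4.01 (1.98). Serpinb1a, an inhibitor of neutrophil serine proteases, was at 1177.0 TPM in KO MK B1-4 and 782.9 in cell 2, against 10.2 to 92.8 TPM in the other 3. Of 10 companions, 6 were tested in each comparison, with 2 higher and 0 lower for WT MK minus WT NMK and 0 higher and 2 lower for KO MK minus WT MK. Of all genes tested, 37.4% were higher and 5.22% lower in the former and 12.4% and 9.27% in the latter. Without B1-4 and 2, 4 companions were lower in KO MK minus WT MK, among them Ms4a3 at -4.99 and Nkg7, a granule membrane protein, at -4.09. Genes of the secondary and tertiary granules were nearly absent, with summed levels of at most 8 TPM in any cell over 10 genes and S100a8, Ltf and Camp at 0 in all 33.

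Of 6 partners of p40phox in the NADPH oxidase, 5 passed the minimum for KO MK minus WT MK. Of these, 4 were higher and 0 lower, beside 12.4% and 9.27% of all genes tested, with the same counts of partners without B1-4 and 2. For WT MK minus WT NMK, 1 partner was higher and 3 were lower, beside 37.4% and 5.22% of genes tested. Rac2, the GTPase of the oxidase, was at 107.5 to 504.6 TPM in KO MK and 26.6 to 73.0 in WT MK cells, with no overlap and a difference of 2.26 (0.77). Cyba, the membrane subunit p22phox, differed by 2.25 (0.87) and Ncf1, the subunit p47phox, by 1.45 (1.18). Without B1-4 and 2 these were 1.84, 2.58 and 1.46. Cybb, the catalytic subunit of the phagocyte oxidase, did not pass 0.1 TPM in any cell.

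Among partners of DAP12, the related adaptor Fcer1g had a pattern unlike Tyrobp. It was at 108 to 4746 TPM in WT MK and 1692 to 4215 TPM in KO MK cells, B1-4 and 2 included, and its median was 0 in WT NMK and 124 TPM in KO NMK cells. Fcgr3, an Fc receptor that signals through Fcer1g, was at 123.2 TPM in KO MK 2 and 50.8 TPM in B1-4 and at 1.7 TPM or less in the other 3 and in all WT and KO NMK cells. Of 12 partners, 8 were tested for KO MK minus KO NMK, with 6 higher and 0 lower, and 7 for KO MK minus WT MK, with 3 higher and 0 lower. Of all genes tested, 34.2% were higher and 3.84% lower in the former and 12.4% and 9.27% in the latter. Without B1-4 and 2 the counts of higher partners were 4 of 7 and 2 of 6. Among lysozyme and cystatin relatives, 9 of 15 were tested for KO MK minus WT MK, with 5 higher and 0 lower, but 0 of 6 were higher without B1-4 and 2. The cysteine protease inhibitor Cstb was at 356 TPM or more in every WT cell.

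Receptors and markers of other cell types were measured beside these. For KO MK minus KO NMK, 34.2% of all genes tested were higher and 3.84% lower. For KO MK minus WT MK these shares were 12.4% and 9.27%. Csf2rb, the shared chain of the receptors for GM-CSF, IL-3 and IL-5, was at 8.1 to 73.1 TPM in all KO MK cells and higher than in WT MK by 2.13 (1.35), or 2.74 without B1-4 and 2. Of 10 monocyte-macrophage markers, 3 were tested for KO MK minus WT MK and 1 was higher, F13a1, which platelets also carry. Their summed level was 2.40 to 5.30 TPM in WT MK and 0.700 to 350 TPM in KO MK cells, 349.5 of it from F13a1 in 1B. None of 7 eosinophil markers passed the minimum in any comparison. Mast cell and basophil markers summed to 14.0 to 126 TPM in WT MK and 8.70 to 33.7 TPM in KO MK cells. Of 10 stem cell genes, 9 were tested for KO MK minus WT MK, with 7 higher and 0 lower, and the summed level was 87.4 to 176 TPM in WT MK and 292 to 1620 TPM in KO MK cells. Without B1-4 and 2, 3 of 5 tested were higher and 1 lower. Of 9 erythroid genes, 7 were tested for KO MK minus KO NMK, with 5 higher and 0 lower, and 5 for KO MK minus WT MK, with 2 higher and 2 lower. Without B1-4 and 2 the counts for KO MK minus WT MK were 3 higher and 0 lower. Of 16 megakaryocyte-platelet genes, 16 were higher for KO MK minus KO NMK, and 4 were higher and 3 lower for KO MK minus WT MK. In the latter, 15 of 16 were higher and 0 lower without B1-4 and 2. Of 7 lymphoid genes, 1 was tested for KO MK minus KO NMK and it was called in neither direction. The part of these markers in the member differences was not tested.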

How the data were processed

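SMART-Seq libraries were made from single cultured CD41-positive stem cells, per the labels' protocols. The authors deposited values as TPM with 1 decimal. The submitters' processing notes name the mm10 build, featureCounts 1.6.2 and STAR 2.6.1e, besides cutadapt 1.9.1 and FastQC 0.11.7. Not given in the sources used here are the annotation, the strand setting, the step to TPM and the rule for leaving out libraries. TPM keeps no depth, and a few abundant transcripts lower all others.

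Columns were matched to samples by their labels, and 1 column of the fuller table matched no sample and was not used. Differences of mean log2(TPM + 1), with a pseudocount of 1, were computed over all genes; this scale understates changes of low genes. The 9 members and 15 further lists were chosen with earlier results of these data known. All members are named. The rule for further names took up to 4 genes per list at 10 TPM or more with the largest difference. It also took the 3 genes most correlated with each member held by at least 5 cells. Only part of the genes that this rule took are named in the text. List genes below 10 TPM, such as Cebpa, Gfi1, Cybb and S100a8, were named after their values were seen. The computation was tested on simulated data. The limits of 6 on the housekeeping score and 3.5 on the platelet score are round numbers between the 2 sets of cells. Positions are from GENCODE M21 on GRCm38. Computation used scipy 1.17.1, pandas 2.3.3 and numpy 2.4.6 in Python 3.11.15, and plots matplotlib 3.10.9.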

Additional observations from a re-analysis of the deposited data

Results flagged for a closer look

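In groups of 4 to 10 cells, 8 of 21 sets of member values had 1 cell far from the rest by Dixon's criterion. Most of these sets had 1 cell above 0 and the rest at 0, where the criterion always marks that cell, whatever its level. Its rate of about 1 in 20 is for normally distributed values, so it cannot be set beside this count. At low levels they were Mpo in WT NMK 3A (0.4 TPM), Ctsg in WT MK 1 (0.1 TPM), Ctsg in KO MK 1B (0.1 TPM) and Tyrobp in WT MK B1-1 (1.7 TPM). At higher levels they were Prtn3 in WT MK 1A (11.7 TPM), Ncf4 in WT NMK 2B (5.8 TPM) and Tyrobp in WT NMK 2 (192 TPM). In the low direction, Lyz2 in WT NMK 1A was at 0 TPM.

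The libraries that the authors left out held 13 member values of at least 1 TPM that were above every kept WT cell of the same kind. KO MK 1 had Lyz2 at 4676 TPM, above every kept cell, Slpi at 419 TPM and Ncf4 at 69.6 TPM. KO MK B1-1, with 27999 genes above 0, had Mpo at 1.8, Elane at 2.8, Ctsg at 1.3, Tyrobp at 2.3 and Ncf4 at 86.5 TPM, so that the 3 azurophil genes held by no kept cell were all present at low level. KO MK B1-1a had Elane at 1.5, Tyrobp at 4.9 and Ncf4 at 18.7 TPM. Elane was at 1.7 TPM in WT MK B1-1a, and Ncf4 at 6.2 TPM in KO NMK B1-1a.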

How the results depend on the processing

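No paired analysis was possible because the values come from no test and each group counts as 1 sample. Of the values for whole comparisons or groups, 299 stayed near the reported one and 55 moved. For single genes and shares of all genes, 945 stayed, 56 moved and 5 changed sign. Changes of sign were counted only for reported differences of at least 1 in size. Runs with each cell left out in turn are part of these counts. A difference stayed near if it shifted by less than the pooled SD between cells, which is wide for some members. A count or share did so within a fixed ratio. Staying near is thus not the same as being unchanged. The setting without the 2 KO MK cells of low platelet score was chosen after seeing the data. Where a value moved the cause was not tested.

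For WT MK minus WT NMK, the 3 members called higher became 1 in the full table and 1 with a pseudocount of 10. The 1 called lower became 2 in the full table, 0 with a pseudocount of 0.1, 3 by the log2 ratio of mean TPM and 0 with the alike WT MK cells counted as 1. For KO MK minus KO NMK, the median of 1.82 became 0.38 in the full table, 0.93 without libraries of low housekeeping score, 0.30 in the full table without them, 0.54 by medians over cells, 0.31 without a title prefix, 2.88 with the prefix B1 and 0.08 without the low-platelet cells. The 6 called higher became 3 without a title prefix, and 2 were lower without the low-platelet cells. For KO MK minus WT MK, the median of 1.73 became 0.31 in the full table without libraries of low housekeeping score, 0.14 by medians over cells, 0.63 with the alike cells counted as 1 and 0.09 without the low-platelet cells, and 1 member was lower with the prefix B1 and 1 without the low-platelet cells. For KO NMK minus WT NMK, the 1 called higher became 0 with a pseudocount of 10, 0 by medians over cells and 2 without a title prefix, and 1 was lower with a pseudocount of 0.1, by the log2 ratio, after median-ratio rescaling and without mitochondrial and ribosomal protein genes. With each cell left out in turn, the members called lower numbered 0 to 1 for WT MK minus WT NMK and 0 to 2 for KO NMK minus WT NMK, where 1 to 2 were higher. The 2 lower were seen without WT NMK 1A. For KO MK minus KO NMK the median ran from 0.96, without KO MK 2, to 2.15 and the number higher from 4 to 6.

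Among reported differences of at least 1 in size, changes of sign were seen for Prtn3 in KO MK minus KO NMK (-0.04 without a title prefix, -1.14 without the low-platelet cells), Tyrobp without the low-platelet cells (-1.23 against KO NMK, -0.19 against WT MK) and Cst7 in KO MK minus WT MK with the prefix B1 (-2.40). At a limit of 5 TPM the median number of members held was 2.5 in WT MK, and at 10 TPM it was 2 in WT MK and 1 in WT NMK. No WT NMK cell with values has the prefix B1, so that setting gives no value there. WT NMK samples with this prefix are labelled but are among those not analysed here. The kept KO NMK cells include some with the prefix and some without. Depth is unknown in TPM, so values listed at 0 cannot be told from missed transcripts.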

Other observations

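Some replicate names differ only by a final letter, and the labels do not say what they share. Of 8 such pairs among the kept cells, every pair had at least 8 of the 9 members in the same state, held or not held. Much of this was fixed by the group. No cell held Mpo, Elane or Ctsg, no NMK cell held Slpi or Cst7, and every WT MK cell held Prtn3, Lyz2 and Cst7. Pairs of cells with unlike names were not compared, so no greater likeness of these pairs is shown. In 2 pairs all 9 were in the same state: WT NMK 4A and 4B both held Prtn3 and Lyz2, and WT MK 1A and 1B both held Prtn3, Lyz2, Cst7 and Ncf4. KO NMK 3A and 3B both held Tyrobp, Lyz2 and Ncf4, which no other KO NMK cell but 5B did. KO MK 1A and 1B both held Slpi, at 1147.9 and 2847.1 TPM.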
